A study of Mus musculus with 50 samples.

Results

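The Schlafen genes are a family of interferon-inducible genes that was followed here in the spleens of mice injected with CpG oligodeoxynucleotides (ODN). The members were chosen by name, with the measured responses of these arrays to CpG ODN in view: probes of the array whose annotated symbol was Slfn1, Slfn2, Slfn3, Slfn4, Slfn5, Slfn8 or Slfn9, which gave 7 genes of the 15312 named genes measured and 9 probes of 36607. Slfn9 had 3 probes, each other member 1. All 7 were present on over 70% of the arrays and passed the filter used in the fits. Slfn2 was measured on 49 of 50 arrays, with 1 array of the control ODN group missing, and the others on all 50. The annotation names the probes by gene only, so signal from close paralogs, such as Slfn8 and Slfn9, could not be told apart here.

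Whole spleens of female mice were hybridised, 1 spleen RNA per array, against a universal mouse reference RNA. The BALB/c mice were untreated (n = 6 arrays), received 400 µg of a CpG ODN mixture into the peritoneum 0.5, 1, 3, 9, 24 or 72 h before the spleen was taken (n = 4 each), or received a control ODN mixture 3 h before (n = 4). Control mice of the C57BL/6 strain, and mice without the tumor necrosis factor gene (TNF-KO), were untreated or taken 3 h after CpG ODN (n = 4 each), and the labels give no dose for them. Titles were followed for the CpG arrays of both C57BL/6 genotypes, although another label field of those arrays names untreated mice. The Tnf log2 ratio lay between 3.16 and 4.59 in C57BL/6 controls after CpG ODN, between 0.58 and 0.78 in untreated controls, and between -0.61 and 0.43 on the 8 TNF-KO arrays. Each time point was described by the authors as 4 independent experiments. Nothing states how the untreated mice were spread over days, so the p-values speak only to how far these arrays were spread, which may in part be technical.

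Every value below is a log2 ratio of spleen (Cy5) over reference RNA (Cy3), so a value of 0 means an equal signal in both, and a difference of 1 between groups is a doubling. Ratios of different probes were not compared as levels, because each depends on the reference. Between 27619 and 30590 probes had a value per array, and the number of arrays limits the precision. Mean log2 ratios of the listed markers of B cells, the most abundant lymphocytes of the spleen, ran from 2.11 to 3.68 over the arrays. A pancreas list varied from 0.21 to 6.76 between arrays, within groups as well as between them. Arrays also fell into 11 runs of consecutive database numbers, used as a stand-in for the order in which the arrays were entered. No run held arrays of both strains, so strain and run cannot be told apart. The 9 h, 24 h, 72 h and control ODN arrays shared no run with untreated BALB/c arrays. For 72 h and control ODN, run and treatment cannot be told apart either, while a run block for 9 h and 24 h rests on the 3 h arrays, which share runs with both.

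The mixtures are shown because they set the treatment groups apart. CG dinucleotides, the element that Toll-like receptor 9 (TLR9) recognises in unmethylated DNA, are in capitals, and all are written 5′ to 3′.
CpG ODN 1555: gctagaCGttagCGt
CpG ODN 1466: tcaaCGttga
control ODN 1612: gctagatgttagCGt
control ODN 1471: tcaagcttga
As the sequences are given, the CpG ODN held 2 and 1 CG dinucleotides, control ODN 1612 held 1 and control ODN 1471 held 0.

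TLR9 is an endosomal receptor of immune cells, B cells and plasmacytoid dendritic cells among them. It signals through MyD88 to NF-kB and to the interferon regulatory factors. Type I interferon made in response acts back on most cells of the spleen through its receptor and turns on genes that carry interferon-stimulated response elements. The Schlafen family of the mouse is a gene cluster on chromosome 11. Slfn1 and Slfn2 encode its short proteins and Slfn3 and Slfn4 its intermediate ones, and the long members Slfn5, Slfn8 and Slfn9 carry an additional helicase-like region. Slfn1 was found as a brake on thymocyte growth, Slfn2 keeps T cells and monocytes quiescent, Slfn3 has been studied in T cells and in gut epithelium, and Slfn4 is expressed in monocytes, macrophages and neutrophils. Slfn5 is an interferon-inducible nuclear protein, and Slfn8 has been studied in macrophages and T cells.

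In BALB/c spleen the intermediate members moved furthest. Which values led to the choice of the members is not recorded, and the responses of all groups were known when they were chosen, those of the C57BL/6 mice included. The responses to CpG ODN in all 3 kinds of mice are therefore given as a description, without p-values for the members. Control ODN, the untreated mice and the differences between responses were tested, but those results were known too, so they are no independent evidence. All BALB/c time points share the same 6 untreated arrays. Of the 7 members, 0 were called higher than untreated spleen at 0.5 h (0.249% of all genes), 1 at 1 h (3.01%), 6 at 3 h (6.82%), 5 at 9 h (4.19%), 5 at 24 h (6.83%) and 2 at 72 h (6.43%), namely Slfn3 and Slfn9. None was called lower, which held for 0.00655%, 0.288%, 3.14%, 2.77%, 1.62% and 4.15% of all genes at these times. The members with every treated array above every untreated one numbered 0 at 0.5 h (2.21% of all genes), 1 at 1 h (5.27%), 5 at 3 h (7.57%), 6 at 9 h (4.54%), 5 at 24 h (6.21%) and 0 at 72 h (6.99%). Called means a Benjamini-Hochberg adjusted p under 0.05 in limma over all genes of the comparison. The median log2 difference of the 7 members was 0.0433 at 0.5 h, 0.609 at 1 h, 1.75 at 3 h, 1.52 at 9 h, 1.16 at 24 h and 0.584 at 72 h, while the median over all genes lay between -0.0306 and 0.0733.

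Slfn4, the myeloid member, had log2 ratios from -0.76 to 0.59 in untreated BALB/c spleen (median -0.07, n = 6). After CpG ODN it was 1.06, 0.58, 0.50 and 1.65 at 0.5 h and 1.13, 1.27, 2.18 and 2.49 at 1 h. It was 3.89, 3.31, 3.82 and 3.92 at 3 h, 4.49, 3.97, 5.23 and 3.27 at 9 h, and 3.08, 3.47, 3.47 and 2.15 at 24 h. Every array from 1 h to 24 h lay above every untreated array, and at 72 h the values of 0.50, 0.67, 1.64 and 0.92 overlapped the untreated range. The difference from untreated spleen was 1.85 ± 0.35 (SE) at 1 h, 3.82 ± 0.35 at 3 h, or 14.1-fold, 4.32 ± 0.35 at 9 h, 3.12 ± 0.35 at 24 h and 1.02 ± 0.35 at 72 h. Slfn4 was the member called at 1 h. The 300 bases around its start (most of them before it, from RefSeq, GRCm38.p6, plus strand) are shown because it had the highest response of the 7. They held no exact match to the interferon element letters searched for.
Slfn4, chr11:83174936-83175235: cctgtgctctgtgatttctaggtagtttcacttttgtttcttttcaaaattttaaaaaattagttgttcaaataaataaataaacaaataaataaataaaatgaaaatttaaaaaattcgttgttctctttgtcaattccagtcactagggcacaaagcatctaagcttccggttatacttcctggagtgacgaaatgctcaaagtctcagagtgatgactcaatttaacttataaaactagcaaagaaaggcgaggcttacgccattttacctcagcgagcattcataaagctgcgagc

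Unlike Slfn4, Slfn3, the other intermediate member, was not called at 1 h. Its untreated BALB/c log2 ratios lay between -0.72 and 0.34 (median -0.23, n = 6) and its 0.5 h values between -0.64 and 0.48. At 1 h the arrays were spread from -0.49 to 1.37 and overlapped the untreated ones, with a difference of 0.75 ± 0.30 (SE). Within runs that difference was 0.139 (2 arrays against 5) and 1.41 (2 against 1), and some alternative settings called it. The arrays reached 3.04, 3.08, 3.78 and 3.19 at 3 h and 3.91, 3.44, 4.25 and 2.60 at 9 h, and stood at 2.30, 1.75, 2.11 and 1.67 at 24 h. No array of these times fell into the untreated range. The difference was 3.45 ± 0.30 (SE) at 3 h, or 10.9-fold, 3.72 ± 0.30 at 9 h, 2.13 ± 0.30 at 24 h and 0.97 ± 0.30 at 72 h, when the arrays (0.21 to 1.18) again overlapped the untreated ones.

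The long members moved less far and were highest at 3 h. Slfn8 had untreated BALB/c log2 ratios of 1.44 to 2.10 (median 1.73, n = 6), 3 h values of 3.92, 3.64, 3.94 and 4.10, and a difference of 2.14 ± 0.25 (SE), or 4.42-fold. It stood 1.58 ± 0.25 higher at 9 h, 1.39 ± 0.25 higher at 24 h and 0.65 ± 0.25 higher at 72 h. Slfn5 had untreated values of 1.41 to 2.12 (median 1.72), 3 h values of 3.44, 3.97, 3.58 and 3.07, and a difference of 1.75 ± 0.23, or 3.37-fold, with 1.52 ± 0.23 at 9 h, 1.16 ± 0.23 at 24 h and 0.32 ± 0.23 at 72 h. For both genes all arrays of 3 h to 24 h were above the untreated arrays.

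The 3 probes of Slfn9 shared a direction at 3 h but not a size. Probe 1, which stands for the gene in the counts, had untreated BALB/c log2 ratios of -0.18 to 0.37, 3 h values of 1.55, 1.43, 1.51 and 1.85, and a difference of 1.50 ± 0.19 (SE). For probe 2 the 3 h values of 3.38, 2.91, 3.36 and 3.75 gave a difference of 2.19 ± 0.20. Probe 3 had values of 1.42, 0.48, 0.86 and 1.86 and a difference of 1.11 ± 0.21, and its arrays overlapped the untreated ones. At 24 h the difference was 0.88 for probe 1, 1.30 for probe 2 and 0.31 for probe 3.

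The promoter windows of the long members are shown so that the differences can be set beside their sequence. Capitals mark a match to the core of the interferon-stimulated response element, GAAA, any 2 bases, GAAA, searched on both strands, so TTTC, any 2 bases, TTTC is the same element read from the other strand. Coordinates are GRCm38.p6, and each window runs 5′ to 3′ on the gene's strand, which is plus for Slfn5 and minus for Slfn8 and Slfn9.
Slfn5, chr11:82951852-82952151: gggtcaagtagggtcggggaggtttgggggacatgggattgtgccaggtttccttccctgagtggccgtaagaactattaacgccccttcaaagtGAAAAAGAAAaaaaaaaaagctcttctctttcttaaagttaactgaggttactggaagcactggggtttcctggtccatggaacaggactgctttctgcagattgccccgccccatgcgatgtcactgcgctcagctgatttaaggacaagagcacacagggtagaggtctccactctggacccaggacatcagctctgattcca
Slfn8, chr11:83020761-83021060: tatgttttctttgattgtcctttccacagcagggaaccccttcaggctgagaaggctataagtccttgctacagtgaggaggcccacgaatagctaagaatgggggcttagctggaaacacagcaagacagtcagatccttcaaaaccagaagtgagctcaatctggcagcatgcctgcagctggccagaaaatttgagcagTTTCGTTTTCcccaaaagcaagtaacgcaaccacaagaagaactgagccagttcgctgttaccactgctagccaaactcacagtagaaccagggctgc
Slfn9, chr11:82991781-82992080: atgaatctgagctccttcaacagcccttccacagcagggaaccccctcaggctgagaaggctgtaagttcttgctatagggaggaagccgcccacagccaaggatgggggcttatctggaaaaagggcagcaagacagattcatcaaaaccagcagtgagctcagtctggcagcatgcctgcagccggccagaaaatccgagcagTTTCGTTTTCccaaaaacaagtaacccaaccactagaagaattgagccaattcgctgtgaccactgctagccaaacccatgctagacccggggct
The match began at position -48 from the first listed start of Slfn8, at -45 in Slfn9 and at -155 in Slfn5, and the letters TTTCGTTTTC were the same in Slfn8 and Slfn9. The element was found in 3.44% of 32851 promoter windows of this length, and it was not found in the windows of Slfn1, Slfn2, Slfn3 and Slfn4. The only other match among the members was the AP-1 motif (TGAGTCA on either strand, 5.2% of windows), at -34 in Slfn4. A gamma-activated site (TTCNNNGAA, 8.3%), an NF-kB motif (GGG, any 2 bases, TTTCC, 1.63%) and a PU.1 motif (GAGGAAGT, 3.2%) matched none of the members' windows. No match overlapped another in a member. A match is a description of letters in this window and not a site of binding. Only exact letters were searched, so a window without a match may still hold a variant of an element.

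Of the short members, Slfn2 had the largest standard error of the 7 members in the BALB/c fit and Slfn1 the smallest difference at 3 h. Slfn2 had untreated BALB/c log2 ratios of 1.98 to 3.20 (median 2.78, n = 6) and values of 0.49, 1.43, 3.64 and 1.89 at 0.5 h, a range wider than that of any other member in one group. Its 3 h values were 4.48, 4.78, 4.86 and 2.79, of which the last lay inside the untreated range, and its 9 h values were 4.25, 4.31, 4.04 and 3.78, all above it. The difference was 1.53 ± 0.44 (SE) at 3 h, or 2.89-fold, and 1.40 ± 0.44 at 9 h. With run as a block the difference was 0.36 at 3 h and -0.18 at 9 h, and within the only run that holds both groups (2 arrays against 1) the 3 h difference was 0.63. Slfn1 had untreated values of 1.30 to 2.33 (median 1.68) and 3 h values of 3.28, 2.26, 1.82 and 2.31, which overlapped, with a difference of 0.66 ± 0.33. It was called at no time in BALB/c.

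**Figure D1:**
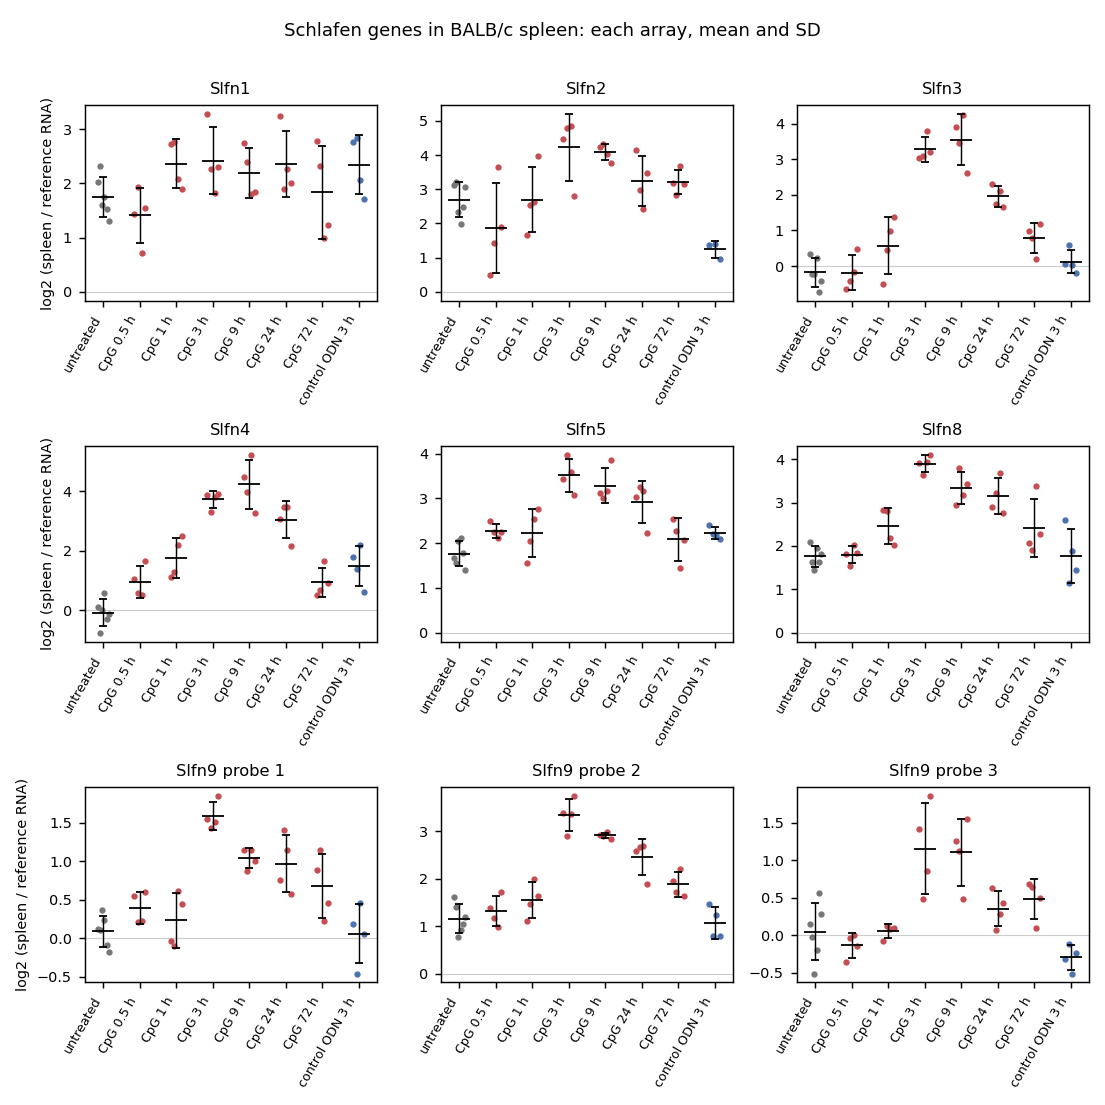
Log2 ratio of spleen over reference RNA for each Schlafen probe in BALB/c spleen, untreated, after CpG ODN at each time and 3 h after control ODN. Points are arrays, horizontal bars are means and whiskers are SD; Slfn4 and Slfn3 reach means of 4.24 and 3.55 at 9 h, and Slfn1 shows overlapping groups throughout.

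Within the run that holds both groups (2 arrays at 3 h against 1 untreated array), the 3 h difference was 4.63 for Slfn4, 3.71 for Slfn3, 2.38 for Slfn8 and 1.76 for Slfn5. With run as a block in the BALB/c fit, the members called numbered 5 at 3 h, 3 at 9 h and 2 at 24 h. Slfn4 and Slfn8 were in each of these counts, Slfn3 was in those at 3 h and 9 h, and Slfn5 and Slfn9 in that at 3 h alone. The block moved Slfn5 to 0.845 at 9 h and 0.443 at 24 h, and Slfn8 to 2.21 and 2.09. Slfn3 at 24 h left the count although its difference stayed between 1.92 and 2.25 over the block and the other settings with no single array left out. The share of all genes called with the block was not computed, so lost precision and a lost difference cannot be told apart from these counts.

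Control ODN was compared with untreated spleen. The injection of ODN, the CG dinucleotide of control ODN 1612 and the array run cannot be told apart in this comparison. Slfn4 was the only member called against untreated spleen, 1 of 7 where 1.05% of all genes were called higher. Its log2 ratios of 1.79, 1.38, 2.18 and 0.61 were all above the untreated arrays, as were those of 2.81% of all genes, the lowest just above the highest untreated value of 0.59, with a difference of 1.57 ± 0.35 (limma, Benjamini-Hochberg adjusted p = 0.0291). The call was lost without any 1 of untreated replicates 2, 5 and 6 or control ODN replicates 1, 2 and 3, with adjusted p up to 0.175. Slfn2 lay lower after control ODN at 1.38, 1.40 and 0.96, below all untreated arrays (1.45% of all genes were lower without overlap), with a difference of -1.45 ± 0.49 that did not pass (limma adjusted p = 0.093). The other 5 members had differences from -0.03 to 0.59 and adjusted p from 0.232 to 0.988. Of 15 neutrophil markers measured, 3 were called higher in the same comparison. Their mean per array ran from 2.01 to 3.34 and overlapped that of untreated spleen, 1.48 to 2.33. Of 24 interferon-stimulated genes 1 was called higher, but their mean per array, 0.91 to 1.16, lay above every untreated one (0.59 to 0.86). The same held for platelet and megakaryocyte markers (2.06 to 2.53 against 1.56 to 1.98). It also held, narrowly, for monocyte and macrophage markers (1.96 to 2.71 against 1.62 to 1.95). The means of the other lists overlapped the untreated ones. The part of these cells and genes in the Slfn4 difference was not tested.

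Directly against control ODN at 3 h, 6 of 7 members were called higher after CpG ODN (7.4% of all genes), and the arrays of these 6 did not overlap (8.24% of all genes). This is again a description, since it shares the 3 h CpG arrays with the comparison above. The CpG and control ODN arrays shared no run, so run and treatment cannot be told apart here. The log2 difference was 3.14 ± 0.33 (SE) for Slfn3, 2.98 ± 0.53 for Slfn2, 2.24 ± 0.38 for Slfn4, 2.13 ± 0.28 for Slfn8, 1.53 ± 0.21 for Slfn9 and 1.29 ± 0.25 for Slfn5. Slfn1 had nearly the same level with both mixtures, 2.42 ± 0.62 (SD, n = 4) after CpG and 2.35 ± 0.54 (SD, n = 4) after control ODN. Compared with the difference from untreated spleen, that from control ODN was smaller for Slfn4 and larger for Slfn2, whose control ODN arrays were the ones above and below the untreated arrays. It was also smaller for Slfn1 (0.07 against 0.66), Slfn5 (1.29 against 1.75) and Slfn3 (3.14 against 3.45), and nearly the same for Slfn8 and Slfn9.

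In C57BL/6 control mice 6 of 7 members were called higher at 3 h after CpG ODN, where 4.95% of all genes were called higher. For 6 members the treated arrays lay above all untreated ones, as for 8.62% of all genes. Slfn4 moved from -0.49, -1.69, -0.25 and -0.72 in untreated spleen to 3.74, 3.54, 4.05 and 2.84, a difference of 4.33 ± 0.37 (SE), or 20.1-fold. Slfn3 moved from -0.54, -0.36, -1.32 and -0.55 to 2.53, 2.87, 2.59 and 1.17, a difference of 2.98 ± 0.38. Both intermediate members had the 2 largest differences of the family in this strain, with no overlap between untreated and CpG arrays. Among the long members, Slfn8 went from 1.88, 1.82, 2.61 and 1.64 to 4.00, 4.00, 3.49 and 3.48 (1.76 ± 0.31). Slfn5 went from 1.80, 2.18, 2.39 and 2.23 to 3.54, 3.92, 3.22 and 3.43 (1.38 ± 0.37). Slfn9 stood higher by 0.72 ± 0.19 on probe 1, 1.72 ± 0.22 on probe 2 and 1.16 ± 0.20 on probe 3.

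Of the short members, Slfn2 went in C57BL/6 controls from 2.23, 3.54, 3.55 and 3.30 to 4.74, 4.51, 4.51 and 4.10 (1.31 ± 0.33, SE). Slfn1 was not called, with 3.08, 3.57, 2.91 and 3.22 untreated and 3.99, 3.31, 3.29 and 2.99 after CpG ODN (0.20 ± 0.25, 95% interval of the difference -0.32 to 0.71). The calls for Slfn2, Slfn5 and Slfn9 were near the threshold, and without CpG replicate 1 or without CpG replicate 2 all 3 were lost, leaving 3 members called. Within the runs that hold 1 array of each group, the difference was 4.27, 4.30 and 5.42 for Slfn4, 3.42, 3.91 and 2.89 for Slfn3, and 1.20, 0.96 and 1.19 for Slfn2. Adding a run block left 5 of 7 called, without Slfn5.

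In TNF-KO mice 5 of 7 members were called higher after CpG ODN, where 3.45% of all genes were called higher. The arrays of 4 members (Slfn1, Slfn3, Slfn4 and Slfn5) did not overlap, as for 6.07% of all genes, and those of Slfn1 all but touched. Slfn4 moved from -1.19, -1.64, -0.81 and -1.03 to 5.02, 4.33, 3.91 and 3.06, a difference of 5.25 ± 0.37 (SE), or 38-fold. Slfn3 moved from -0.54, -0.97, -1.77 and -0.67 to 3.02, 2.74, 1.93 and 1.52 (3.29 ± 0.38). The intermediate members again showed no overlap between treated and untreated arrays. Slfn5 went from 3.11, 1.82, 2.91 and 2.51 to 4.21, 3.19, 4.37 and 5.62 (1.76 ± 0.37). Slfn8 went from 2.15, 2.49, 3.05 and 1.87 to 4.48, 4.02, 3.77 and 2.90, with overlapping arrays (1.40 ± 0.31). Slfn1, which was not called in the controls, went from 2.67, 3.12, 2.29 and 2.91 to 3.12, 3.95, 3.69 and 4.03 (0.95 ± 0.25).

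Slfn2 in TNF-KO mice had 3.37, 3.75, 3.58 and 3.05 untreated and 2.79, 4.54, 4.12 and 4.24 after CpG ODN, where 1 treated array lay below all untreated ones (0.49 ± 0.33, SE). Slfn9 was not called on probe 1 (0.55 ± 0.19) and was called on probe 2 (1.65 ± 0.22) and probe 3 (1.22 ± 0.20). The Slfn1 call was lost without untreated replicate 1 or 3 or without CpG replicate 2, 3 or 4, and the Slfn8 call without CpG replicate 1. With the compared groups fitted alone, 3 of 7 members were called, without Slfn1 and Slfn5.

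**Figure D2:**
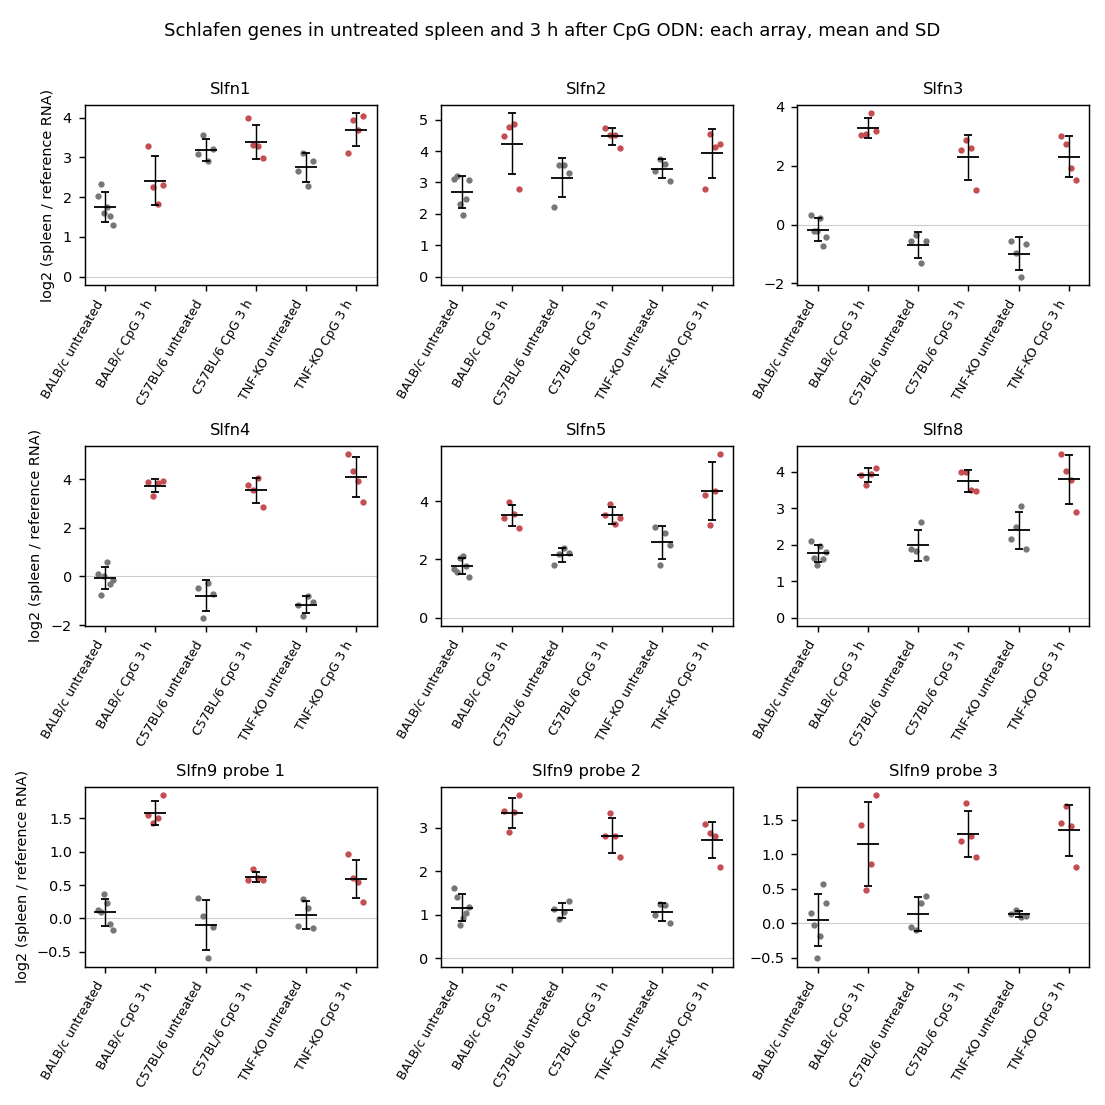
Log2 ratio of spleen over reference RNA for each Schlafen probe in untreated spleen (grey) and 3 h after CpG ODN (red) in BALB/c, C57BL/6 control and TNF-KO mice. Points are arrays, horizontal bars means and whiskers SD; treated and untreated arrays of Slfn4 and Slfn3 do not overlap in any of the 3 kinds of mice, and Slfn1 is higher in untreated C57BL/6 controls than in untreated BALB/c.

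The difference between the responses of the genotypes was tested as an interaction. It was called for 0 of 7 members, where 0.0268% of all genes were called, and at an unadjusted limma p under 0.05 for 1 member, Slfn1. In every alternative setting that was run the count of members called was also 0. TNF-KO minus control was 0.75 for Slfn1 (limma adjusted p = 0.605, 95% interval 0.02 to 1.48), 0.92 for Slfn4 (0.693, interval -0.18 to 2.01) and -0.82 for Slfn2 (0.693, interval -1.81 to 0.17). For Slfn3, Slfn5, Slfn8 and Slfn9 the differences were 0.31, 0.38, -0.36 and -0.17, and the widest of the intervals, that of Slfn3, ran from -0.81 to 1.43. In untreated spleen 0 of 7 members differed between the genotypes, where 0.595% of all genes were called, and 0 at an unadjusted limma p under 0.05. The differences ran from -0.45 ± 0.25 for Slfn1 to 0.44 ± 0.37 for Slfn5.

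**Figure D3:**
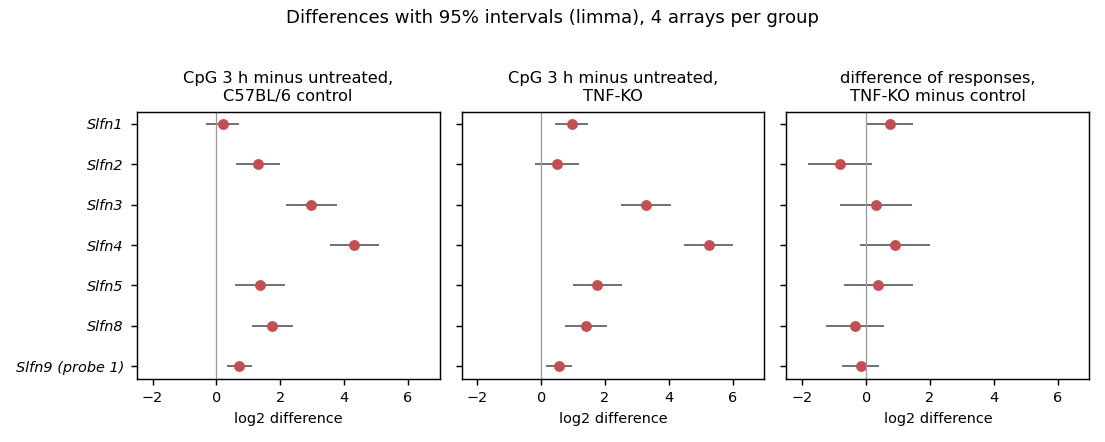
Log2 differences with 95% intervals from limma for the 7 members, CpG ODN at 3 h minus untreated in C57BL/6 control mice and in TNF-KO mice, and the difference between these responses. Slfn4 is the farthest to the right in both genotypes, at 4.33 and 5.25, and all intervals of the difference of responses cross 0 except that of Slfn1, which runs from 0.02 to 1.48.

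Between the strains, the response at 3 h differed for 0 of 7 members after adjustment, where 0.453% of all genes were called, and for 1 at an unadjusted limma p under 0.05. That member was Slfn9, by -0.77 ± 0.27 on probe 1 in C57BL/6 controls relative to BALB/c (limma adjusted p = 0.416), with -0.47 ± 0.30 on probe 2 and 0.05 ± 0.30 on probe 3. No alternative setting gave a called member. In untreated spleen 1 of 7 members was higher in C57BL/6 controls than in BALB/c, where 8.47% of all genes were called higher. Slfn1 had 3.08, 3.57, 2.91 and 3.22 against a BALB/c range of 1.30 to 2.33, without overlap (8.82% of all genes), a difference of 1.44 ± 0.31 (limma adjusted p = 0.000934), or 2.72-fold. The call held in every setting that was run, with limma adjusted p up to 0.028. A run block could not be fitted, so strain and run cannot be told apart in this difference. Of 12 T cell markers measured, 6 were called higher in the same comparison, with array means of 2.40 to 2.66 against 1.56 to 1.95. Also called higher were 4 of 8 dendritic cell, 3 of 8 natural killer cell, 4 of 15 neutrophil, 2 of 11 monocyte and macrophage and 0 of 9 B cell markers and 9 of 24 interferon-stimulated genes. In these lists 1 natural killer cell marker, 1 neutrophil marker and 1 interferon-stimulated gene were called lower. Of 6 erythroid markers 1 was called higher and 1 lower. The list medians were 0.788 for T cells, 0.664 for dendritic cells, 0.721 for natural killer cells, 0.417 for neutrophils and 0.533 for the interferon-stimulated genes. The part of these cells and genes in the Slfn1 difference was not tested. In whole spleen, more cells that express a gene and more RNA per cell cannot be told apart.

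Over all 12 groups, Slfn4 was highest in BALB/c at 9 h (4.24 ± 0.83, SD, n = 4), followed by TNF-KO after CpG (4.08 ± 0.82), BALB/c at 3 h (3.73 ± 0.29) and C57BL/6 controls after CpG (3.54 ± 0.51), and lowest in untreated TNF-KO (-1.17 ± 0.35). No pair of neighbours in its order was separated without overlap. Slfn3 ran from 3.55 ± 0.71 (SD, n = 4) in BALB/c at 9 h to -0.98 ± 0.55 in untreated TNF-KO, and only 2 steps of its order had no overlap, from BALB/c at 3 h down to TNF-KO after CpG and from BALB/c at 24 h down to 72 h. Slfn8 was highest in BALB/c at 3 h (3.90 ± 0.19), Slfn5 in TNF-KO after CpG (4.35 ± 1.00), Slfn2 in C57BL/6 controls after CpG (4.46 ± 0.27) and Slfn1 in TNF-KO after CpG (3.70 ± 0.41). Slfn8 and Slfn5 were lowest in untreated BALB/c, Slfn2 after control ODN (1.25 ± 0.25, SD, n = 3) and Slfn1 in BALB/c at 0.5 h (1.41 ± 0.51, SD, n = 4). Each neighbouring pair overlapped for these 4 genes. Probe 1 of Slfn9 was highest in BALB/c at 3 h (1.59 ± 0.18), above every array of the next group.

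The members' patterns over the 12 group means fell close together for some pairs and not for others, given here as Pearson's r and as a description of 12 points that share their treatments. It was highest for Slfn3 with probe 2 of Slfn9, at 0.969, an intermediate with a long member. Next came 0.951 for Slfn3 with Slfn4, 0.949 for Slfn8 with probe 2 of Slfn9, 0.937 for Slfn8 with probe 3 of Slfn9 and 0.918 for Slfn5 with Slfn8. Slfn1 had values from -0.0578 with probe 1 of Slfn9 to 0.643 with Slfn5, with 0.211 for Slfn3, 0.253 for Slfn4, 0.533 for Slfn2 and 0.536 for Slfn8. Slfn2 was nearest to probe 3 of Slfn9 at 0.894 and to Slfn8 at 0.853. The probes of Slfn9 had values of 0.906, 0.693 and 0.91 among themselves.

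Among named genes outside the family, the 3 most like Slfn8 were Rnf166 (r = 0.98 over 12 group means), the antiviral GTPase gene Mx1 (0.979) and Ifit3 (0.976), an interferon-induced gene. Slfn3 was nearest to the monocyte chemokine gene Ccl12 (0.977), the oligoadenylate synthetase-like gene Oasl1 (0.974) and Ttc34 (0.97). For Slfn4 the nearest were Sco1 (0.955), S100a8 (0.954), which encodes a calprotectin subunit of neutrophils and monocytes, and Oas3 (0.95). Slfn1 was most like Marco (0.947), a scavenger receptor gene of marginal zone macrophages, then Ep400 (0.931) and Adcy4 (0.928). For Slfn5 they were Ipo4 (0.965), Tmem184b (0.963) and Rasa4 (0.963), for Slfn9 Impg2 (0.966), Mthfsd (0.958) and Chmp4b (0.952), and for Slfn2 Pgpep1 (0.95), Col7a1 (0.943) and Bcorl1 (0.94). These were picked as the highest of 14809 candidate genes and carry no test.

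Interferon-stimulated genes outside the family moved beside the members. Of 24 measured from a list of 30, 20 were called higher in C57BL/6 controls at 3 h and 22 in TNF-KO mice. The median log2 differences were 1.94 and 2.75 over the list against 1.38 and 1.40 over the 7 members. The difference between these responses was called for 0 of the 24. The list's mean per array ran from 1.19 to 1.55 in untreated controls and from 0.80 to 0.89 in untreated TNF-KO. After CpG ODN it ran from 2.76 to 3.35 in controls and from 2.76 to 3.46 in TNF-KO. The 3 genes of the list with the smallest p for CpG ODN in C57BL/6 controls were Eif2ak2, the double-stranded RNA-dependent kinase gene (2.24 ± 0.16, limma adjusted p = 1.14e-07), Ifit3 (2.76 ± 0.22, 3.56e-07) and Ifih1, the RNA sensor MDA5 gene (2.70 ± 0.23, 6.56e-07). In BALB/c the count of this list was 0 at 0.5 h, 5 at 1 h, 22 at 3 h, 21 at 9 h, 19 at 24 h and 20 at 72 h, when 2 of 7 members were called. At 72 h the list's median was 1.16 and that of the members 0.584.

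**Figure D4:**
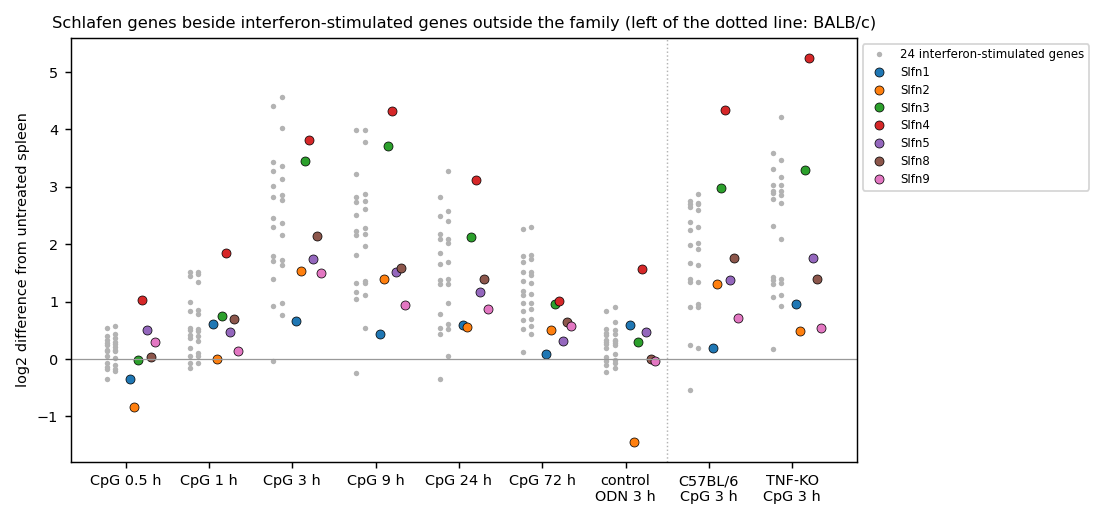
Log2 difference from untreated spleen for the 7 Schlafen members (coloured, Slfn9 by probe 1) beside 24 interferon-stimulated genes outside the family (grey), for each CpG time and control ODN in BALB/c and for CpG ODN at 3 h in C57BL/6 control and TNF-KO mice. Slfn4 lies above all grey points in C57BL/6 control and TNF-KO mice, at 4.33 and 5.25, and Slfn2 lies below all of them after control ODN, at -1.45.

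Of the type I interferon pathway, 12 of 14 listed genes were measured, and 7 were called higher in C57BL/6 controls, 5 in TNF-KO and 7 in BALB/c at 3 h, with none lower. In C57BL/6 controls the smallest p belonged to Usp18, which turns off the receptor's signalling (3.01 ± 0.34, limma adjusted p = 1.39e-05), Socs1, an inhibitor of the Janus kinases (2.11 ± 0.26, 5.29e-05), and Stat2, a transcription factor of the pathway (1.59 ± 0.23, 0.000165). Of 9 measured TLR9 pathway genes 3 were called higher in C57BL/6 controls, 2 in TNF-KO and 4 in BALB/c at 3 h. The 3 in the controls were Irak3, an inhibitor of the pathway (1.14 ± 0.16, limma adjusted p = 0.000192), the adaptor gene Myd88 (0.98 ± 0.15, 0.000336) and the NF-kB inhibitor gene Nfkbia (1.09 ± 0.19, 0.00133).

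Of the other Schlafen genes, Slfn10-ps, annotated as a pseudogene, rose by 1.40 ± 0.24 in C57BL/6 controls (limma adjusted p = 0.00123) and 0.97 ± 0.24 in TNF-KO mice (limma adjusted p = 0.0289), and stood 1.90 ± 0.21 higher in BALB/c at 3 h. Slfnl1, a Schlafen-like gene, did not pass in any of these (-0.34 ± 0.17 in C57BL/6 controls, limma adjusted p = 0.267). Responses to CpG ODN were known when these genes were chosen, so their p-values are no independent evidence. Signal of Slfn10-ps could not be told apart from that of close paralogs. Slfn14 was not analysed here. Of the 7 measured genes next to the cluster, Nle1, a ribosome biogenesis gene, rose by 0.96 ± 0.18 in C57BL/6 controls (limma adjusted p = 0.00219) and 0.80 ± 0.18 in TNF-KO (limma adjusted p = 0.0128). Rad51d, a gene of DNA repair, fell by 0.71 in C57BL/6 controls (SE 0.18, limma adjusted p = 0.0201) and did not pass in TNF-KO (-0.47 ± 0.18, limma adjusted p = 0.213). Rffl, Fndc8, Unc45b, Ap2b1 and Rasl10b did not pass in either, with differences from -0.51 to 0.67.

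Neutrophil markers moved in part beside the members at 3 h, and most monocyte and macrophage markers were not called against untreated spleen. Of 15 measured neutrophil markers 7 were called higher in C57BL/6 controls after CpG ODN, 8 in TNF-KO mice and 5 in BALB/c at 3 h, none lower. Their mean per array ran from 3.29 to 4.23 in treated C57BL/6 controls against 2.31 to 2.73 untreated, and from 2.91 to 3.75 against 1.38 to 2.84 in TNF-KO. In BALB/c it ran from 2.84 to 3.56 at 1 h and 2.46 to 2.75 at 3 h, against 1.48 to 2.33 untreated. The median difference of the neutrophil list in BALB/c was 1.1 at 1 h and 0.183 at 3 h. Over all arrays, which share their treatments, the neutrophil mean had a Pearson r of 0.625 with Slfn4 and 0.556 with Slfn1, and across the 7 members from 0.177 for Slfn2 upward. Taken as deviations from the group means, r was 0.359 for Slfn4, 0.457 for Slfn1 and -0.224 for Slfn2. Of 11 monocyte and macrophage markers, 1 was called higher and 1 lower in C57BL/6 controls, and 2 higher in TNF-KO. In BALB/c at 3 h 1 of them was called higher and 1 lower. The part of these cells in the Slfn differences was not tested beyond these values.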

How the data were processed

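The authors deposited log2 ratios, spleen against reference RNA, in a table of 50 two-colour arrays. Per the series text, the authors corrected background, removed flagged values and spots with both signals under 100, took log base 2 and applied lowess normalization within arrays, with BRB ArrayTools and mAdb. Signal over background is not recorded, and the normalization removes a shift shared by most genes. The sources used here name no genome build for the probes.

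Probes were named through the platform annotation and RefSeq (GRCm38.p6, names and promoter windows only), and the probe with most values stood for a gene. Where probes tied, as the 3 of Slfn9 did, the first in order was used. Each array was centred on its median. Differences were fitted with limma 3.58.1 in R 4.3.3 on group means, over 34 BALB/c arrays (15264 genes), 16 C57BL/6 arrays (14951) and all 50 (15262) for strains, for probes present on over 70% of arrays, with Benjamini-Hochberg adjustment over all genes of a comparison and a threshold of 0.05. The fit was tested on simulated data. The members, lists and tests were chosen with earlier results of these data known. Named genes were the 7 members, the 3 genes most like each over group means, the 3 smallest p of each pathway list in C57BL/6 controls, other Schlafen genes, 5 neighbours on either side and Tnf; cell type markers were summed. Alternatives were no centring, scaling, presence on every array, no filter, the mean of probes, array weights, groups alone, a replicate or run block, leaving out each array and, chosen after seeing the data, the pancreas list as a covariate.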

Additional observations from a re-analysis of the deposited data

Results flagged for a closer look

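Among 107 combinations of a probe and a group with 4 or 6 values, 2 had an array far from the rest of its group by Dixon's criterion at 95%, which chance alone would give in about 1 of 20 combinations. Slfn4 in BALB/c spleen at 3 h had its lowest array, replicate 2, at 3.31, while the other 3 lay between 3.82 and 3.92. Probe 2 of Slfn9 in BALB/c spleen at 24 h had its lowest array, replicate 4, at 1.88, while the others lay between 2.58 and 2.69. Both arrays remained above every untreated array of their probe.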

How the results depend on the processing

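Of 282 recomputed counts of called members over the 14 comparisons, 254 stayed within 1.5 times the count reported, and the cause of the other moves was not tested. The share of all genes called was not recomputed in these settings. At 1 h in BALB/c the count of 1 became 3 with array weights and 2 with the run block. With the run block it was 3 at 9 h and 2 at 24 h, in place of 5 each. At 72 h the count of 2 became 4 with array weights and 0 with the replicate block, and for control ODN against untreated spleen the count of 1 became 0 after scaling to the same spread, 2 with the groups compared alone and 0 with the replicate block. In TNF-KO mice the count of 5 became 3 with the groups compared alone. Leaving out 1 array at a time gave 1 to 2 members at 1 h, 0 to 2 at 72 h, 0 to 2 for control ODN and 3 to 6 in C57BL/6 controls. The 72 h count fell without untreated replicate 1, 2, 3, 5 or 6 or CpG replicate 1, 2 or 4. Arrays of different groups with the same replicate number had a median correlation of deviations of 0.049 in BALB/c, against -0.031 for other numbers. In C57BL/6 it was 0.096 against -0.048. It was above 0.1 for 43 of 112 same-number pairs in BALB/c and 12 of 24 in C57BL/6. Only the replicate block used the numbers, so the standard errors given above leave out any such link. The replicate block changed no other count by over 1.5 times. The run block could not be fitted for 72 h, control ODN, CpG against control ODN or the untreated strains.

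The sign changed in 47 of 1964 recomputed member differences, none of them called before or after. With the run block in BALB/c, Slfn2 was -0.177 at 9 h in place of 1.4 and -1.31 at 24 h in place of 0.559, and Slfn1 was -0.191 at 9 h in place of 0.439 and -0.329 at 24 h in place of 0.598. Against untreated spleen after control ODN, Slfn8 was -0.226 after scaling, -0.014 with the replicate block and -0.267 to 0.214 without 1 array, and Slfn9 was -0.164 to 0.14 without 1 array. Without 1 array, Slfn1 in C57BL/6 controls ran from -0.00017 to 0.333, the genotype difference of responses from -0.0642 to 0.57 for Slfn3 and -0.0389 to 0.769 for Slfn5, and that of untreated spleens from -0.0287 to 0.413 for Slfn2 and -0.0177 to 0.281 for Slfn9. With the run block Slfn3 had a genotype difference of -0.0513, and the strain difference of responses was 0.744 for Slfn2 in place of -0.224 and 0.0533 for Slfn3. After scaling, Slfn8 was -0.0499 between untreated strains.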
